A study of Mus musculus with 8 samples.

Results

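The 40 genes described here encode the machinery of autophagy and a set of lysosomal proteins. They were chosen by name from what is known of the pathway, with earlier results of these data known. Each was matched to the array's transcript clusters, the units that stand for a gene, that carry exactly 1 gene symbol, and the cluster with the highest mean over all arrays represented the gene. In this way 38 of the 40 were measured among 22180 genes in all, 23 of the autophagy machinery, 13 lysosomal proteins and the transcription factors Tfeb and Tfe3. Bnip3l, a mitophagy receptor, shares its annotation with a pseudogene, and it and the autophagy receptor Optn were not analysed here.

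In autophagy, a double membrane grows around cytoplasm, closes into an autophagosome and fuses with the lysosome, where acid hydrolases degrade the contents. A kinase complex starts the process, a lipid kinase complex marks the membrane, and conjugation enzymes attach proteins of the LC3 and GABARAP family to it, to which cargo receptors bind. In liver, autophagy is known to run high in fasting and to be held back by insulin and amino acids after a meal, partly through TFEB and TFE3, factors that switch on lysosomal and autophagy genes by binding an E-box in their promoters.

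The comparison was between livers of 3 wild-type (WT) and 5 Abhd15 knockout (KO) mice, all male and on the background C57BL/6J. Abhd15 encodes a protein with an alpha/beta hydrolase domain that is known mainly from adipocytes. All mice were fed normal chow, were 14 weeks old, and were fasted overnight and then given chow for 1 hour before the liver was frozen, so that the comparison concerns liver transcripts shortly after a meal. The sources used here do not describe the knockout allele, so it is not known whether the Abhd15 probes lie in a deleted part. The labels describe 1 mouse per sample without listing the animals, and p-values therefore reflect only how far these samples varied.

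Each liver was measured on 1 Mouse Gene 2.0 ST array, which gives a log2 expression value per cluster, with array medians of 2.99 to 3.05. Abhd15 was lower in KO without overlap between the groups, at 5.12 ± 0.077 (SD, n = 5) against 5.64 ± 0.176 (SD, n = 3) in WT. This is a log2 difference of -0.52 (SE 0.129), taken from the brighter of the 2 clusters of the gene. The 6 hepatocyte markers averaged 11.47 to 11.50 on the WT arrays and 11.36 to 11.55 on the KO arrays. KO arrays 1 and 2 stood apart on the first principal component, where they scored 35.74 and 32.15 and the next array 0.66. They also had the highest values of Igfbp1, a gene repressed by insulin, at 10.3 and 9.56 against 5.66 to 6.88 in the other KO arrays and 4.35 to 5.78 in WT. For named genes with a log2 difference of at least 0.1, the difference without these 2 arrays is also given where it turned its sign or moved by over 1.5 times. On the second principal component KO array 4 stood apart, with a score of 41.82 and the next array at 4.16. KO array 4 also held the lowest value of 12 of the 38 measured genes, against 1 to 6 on the other arrays. In whole liver, fewer cells of a type and less RNA per cell cannot be told apart.

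No member passed the test over all genes. Limma's test of KO against WT, fitted to the 23521 clusters with 1 symbol and adjusted by the Benjamini-Hochberg method at a threshold of 0.05, called 0 clusters (0%), and so 0 of the 23 autophagy genes, 0 of the 13 lysosomal genes, and neither Tfeb nor Tfe3. The targeted gene Abhd15 was not called either, with a limma adjusted p of 0.795. An unadjusted p under 0.05 was found for 1429 clusters (6.08%, with 2.75% higher and 3.32% lower in KO). Among the 38 members it was found for 1 (2.63%), the lysosomal protease gene Ctsl, which was higher. The arrays of the groups did not overlap in 1042 clusters (4.43%, with 1.99% higher and 2.44% lower) and in 2 members (5.26%), Ctsl higher and Atg3 lower. Both shares among the members were near or below those of the array as a whole.

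The differences of the members were small. The log2 difference, KO minus WT, had a median of -0.01 over the 23 autophagy genes, 10 higher and 13 lower, with a range of -0.17 to 0.30. Over the 13 lysosomal genes its median was 0.06, 9 higher and 4 lower, with a range of -0.11 to 0.45. Over all 22180 genes the median difference was 0.00 with quartiles of -0.14 and 0.13, and over the 7478 genes with a mean level of at least 5 it was -0.04 with quartiles of -0.15 and 0.06. All members except Tfeb had such a level. The limma 95% intervals of the 23 autophagy genes lay within -0.50 and 0.85, and those of the 13 lysosomal genes within -0.55 and 0.74, so a log2 change of 1 in either direction lay outside the interval of each.

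**Figure D1:**
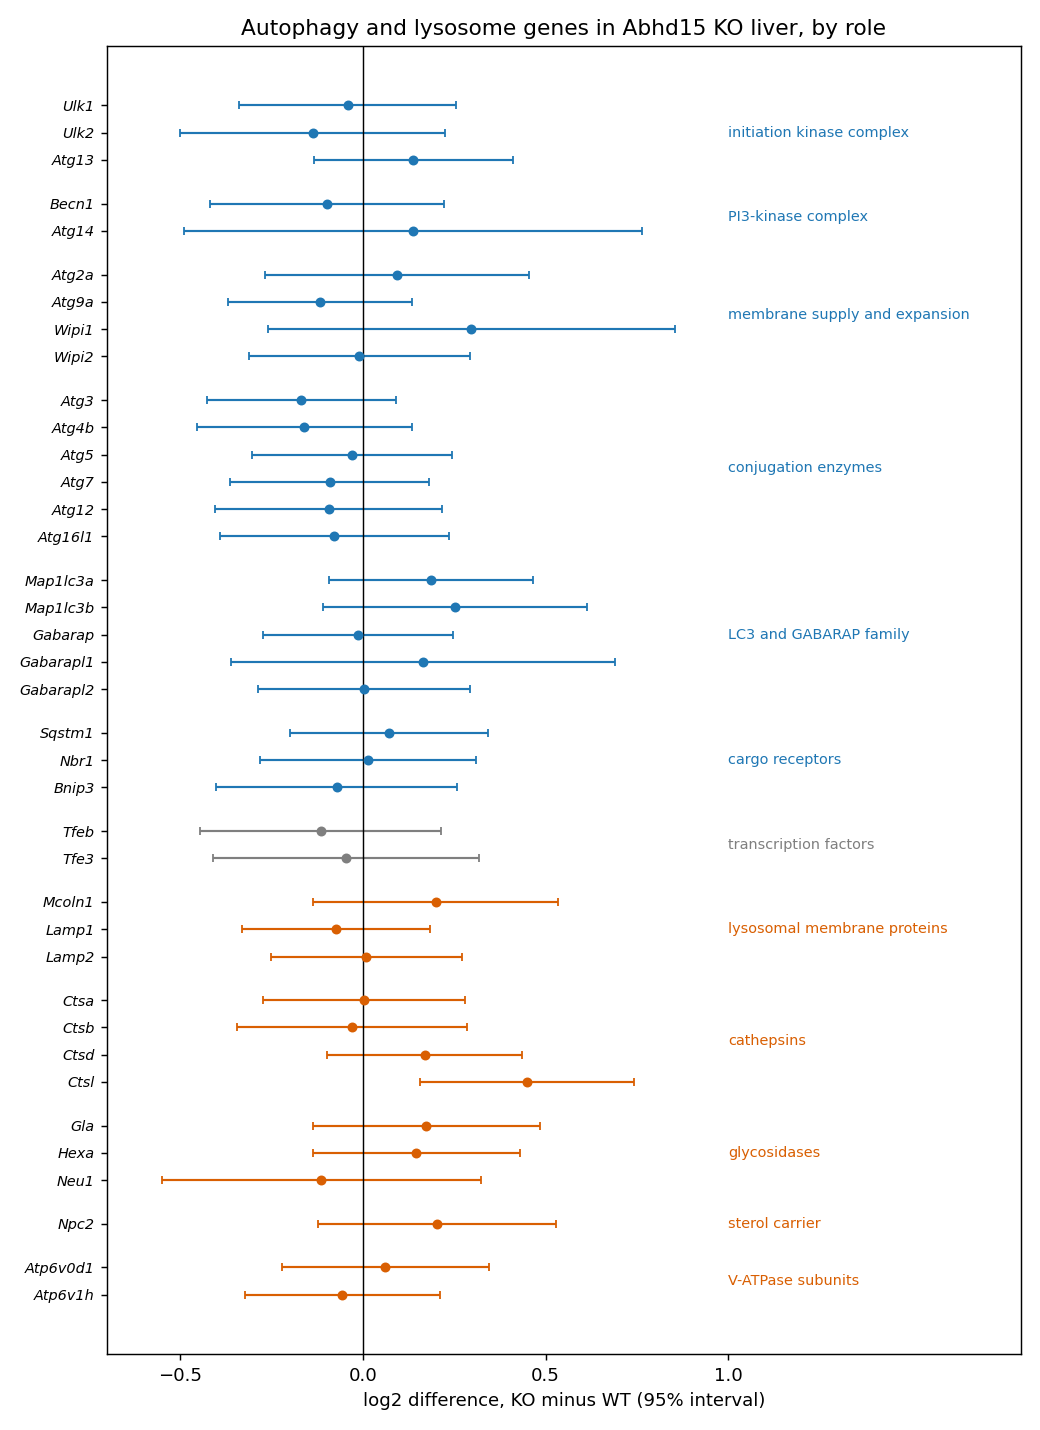
Log2 difference, KO minus WT, of each of the 38 measured members (points) with limma's 95% interval (bars), grouped by role; blue, autophagy machinery; grey, transcription factors; orange, lysosomal proteins. The interval of Ctsl, from 0.16 to 0.74, is the only one of the 38 that does not include 0.

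**Figure D2:**
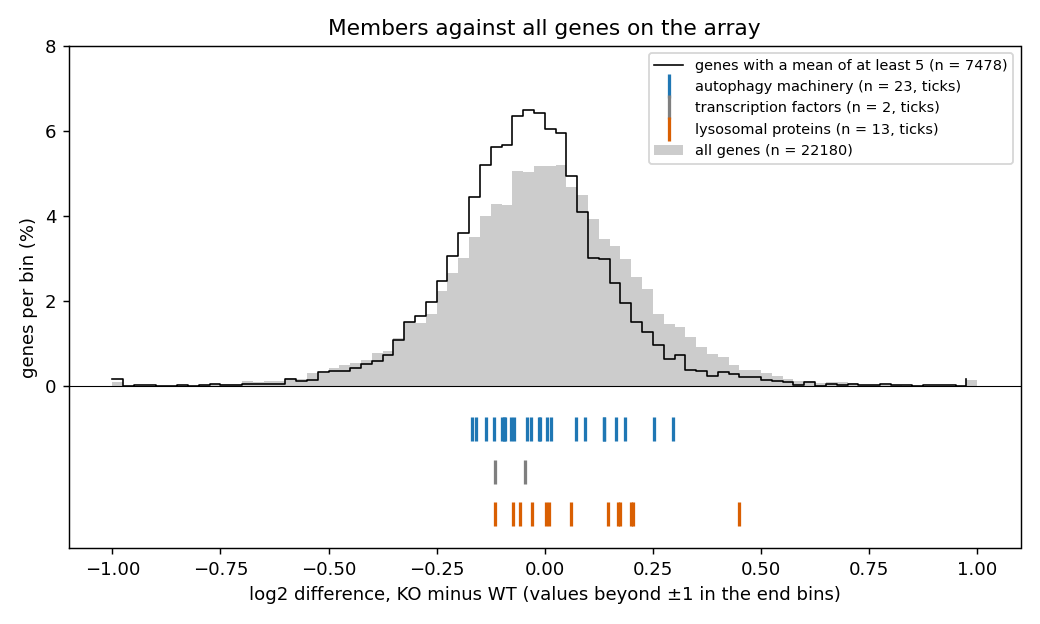
Distribution of the log2 difference, KO minus WT, over all 22180 genes (grey bars) and over the 7478 genes with a mean of at least 5 (line), as percent of genes per bin; ticks below mark the members by class. The ticks lie within the body of the distribution, with Ctsl at 0.45 farthest out.

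Among the lysosomal proteases, Ctsl stood out. It encodes cathepsin L, a cysteine endopeptidase of the lysosome. Its log2 values were 10.39, 10.28 and 10.29 on WT arrays 1 to 3, and 10.73, 10.62, 10.82, 10.68 and 11.02 on KO arrays 1 to 5. Each KO array lay above each WT array, with KO array 5 the highest. The KO mean was 10.8 ± 0.157 (SD, n = 5) and the WT mean 10.3 ± 0.057 (SD, n = 3), which is a log2 difference of 0.45 (SE 0.133), or 1.37-fold. The two-sided exact permutation p was 0.0179, the smallest that the 56 splits of the arrays can give, and the limma p adjusted over all clusters was 0.795. A difference of this size or larger in either direction was found in 5.37% of all genes, and in 3.92% of those with a mean of at least 5. Without KO arrays 1 and 2 the difference was 0.52.

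Macrophages are rich in lysosomes, so their markers are given beside Ctsl. Of 12 Kupffer cell and macrophage markers, 6 were higher in KO and 0 were called, with a median log2 difference of 0.05. Their mean log2 level was 6.06 to 6.50 on the WT arrays and 5.81 to 6.85 on the KO arrays. The log2 of their summed level was 9.95 to 10.4 in WT and 9.79 to 10.8 in KO, and none was near the lowest values of the array, the dimmest having a mean of 4.84. On KO arrays 1 to 5 their mean was 6.75, 6.43, 6.85, 5.81 and 6.21. Ctsl read 10.73, 10.62, 10.82, 10.68 and 11.02 on the same arrays. The markers were thus highest on KO array 3, while Ctsl was highest on KO array 5. The part of these markers in the difference of Ctsl was not tested.

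The other cathepsins differed less. Ctsd, which encodes the aspartic protease cathepsin D, had a mean of 10.03 with a highest value of 10.06 in WT, and read 10.31, 10.20, 10.17, 10.28 and 10.04 in KO. All of its KO arrays were above the WT mean, but KO array 5 lay below WT array 1, and the log2 difference was 0.17 (SE 0.121, exact permutation p = 0.0714). Ctsb, the cysteine protease cathepsin B, and Ctsa, a serine carboxypeptidase that also protects other lysosomal enzymes, had log2 differences of -0.03 (SE 0.143) and 0.00 (SE 0.125). Averaged over the 4 genes, and as the difference from each gene's WT mean, the cathepsins lay at -0.02 to 0.01 on the WT arrays and at 0.07 to 0.24 on the KO arrays, with KO array 1 the highest. Without Ctsl the average lay at -0.015 to 0.024 in WT and at -0.117 to 0.188 in KO, and the groups overlapped.

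Of the remaining lysosomal genes none separated the groups. Npc2, whose product carries cholesterol within the lysosome, read 7.42, 7.56 and 7.73 in WT and 7.99, 7.93, 7.71, 7.71 and 7.53 in KO. KO arrays 1 and 2 held its highest values, and its log2 difference of 0.20 (SE 0.147) was 0.08 without them. Mcoln1, the calcium channel of the lysosomal membrane, read 7.31, 7.24 and 7.17 in WT and 7.16, 7.55, 7.73, 7.28 and 7.47 in KO. The lowest and the highest value of Mcoln1 were both in KO, and its log2 difference was 0.20 (SE 0.152).

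The other lysosomal genes were within the spread of the arrays as well. Neu1, a sialidase, read 6.72, 6.81 and 6.25 in WT and 6.60, 6.52, 6.84, 6.04 and 6.39 in KO, a log2 difference of -0.11 (SE 0.198), or -0.285 without WT array 3. Lamp1, a main glycoprotein of the lysosomal membrane, read 10.69, 10.71 and 10.73 in WT and 10.69, 10.73, 10.65, 10.53 and 10.59 in KO, a log2 difference of -0.07 (SE 0.117). Lamp2, which is needed for fusion with autophagosomes, had one of 0.01 (SE 0.119). Gla, alpha-galactosidase A, and Hexa, a subunit of beta-hexosaminidase, had log2 differences of 0.17 (SE 0.141) and 0.15 (SE 0.128). Atp6v0d1 and Atp6v1h, subunits of the proton pump that acidifies the lysosome, had 0.06 (SE 0.128) and -0.06 (SE 0.12).

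Among the autophagy genes, the 6 conjugation enzymes were all lower in the KO mean, and none was called. Atg3, the enzyme that transfers LC3 to its lipid, was the member without overlap, at 8.83, 8.84 and 8.94 in WT and 8.63, 8.81, 8.70, 8.63 and 8.72 in KO. WT array 1 and KO array 2 were separated by little. The means were 8.87 ± 0.062 (SD, n = 3) and 8.70 ± 0.075 (SD, n = 5), a log2 difference of -0.17 (SE 0.117), with an exact permutation p of 0.0357 and a limma adjusted p of 0.874. Atg4b, the protease that trims LC3 before conjugation and releases it afterwards, read 6.73, 6.65 and 6.58 in WT and 6.42, 6.47, 6.60, 6.29 and 6.68 in KO. Its groups overlapped through KO arrays 3 and 5, and its log2 difference was -0.16 (SE 0.133).

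The other conjugation genes were Atg7, the activating enzyme, Atg12 and Atg5, which are joined to each other, and Atg16l1, which places their complex on the membrane. Their log2 differences were -0.09 (SE 0.123), -0.09 (SE 0.14), -0.03 (SE 0.124) and -0.08 (SE 0.142). Averaged over all 6 genes as the difference from each gene's WT mean, the arrays read 0.02, -0.02 and 0.00 in WT and -0.15, -0.12, -0.10, -0.13 and -0.03 in KO. KO array 5 lay just below WT array 2, and the other KO arrays lay lower. Without Atg3, KO array 5 lay at -0.006 and WT array 2 at -0.020, and the groups overlapped. Of the genes with a mean of at least 5, 4504 of 7478 were also lower in KO.

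The genes of the proteins that these enzymes conjugate were higher in the KO mean in 4 of 5 cases, and none was called. Map1lc3b, the LC3 gene used most as an autophagosome marker, read 8.92, 8.94 and 8.90 in WT and 9.42, 9.21, 9.19, 8.72 and 9.31 in KO. On 4 KO arrays it was above each WT array, while KO array 4 was below all of them, and its log2 difference was 0.25 (SE 0.163), or 0.16 without KO arrays 1 and 2. Map1lc3a, its close relative, read 5.93, 5.88 and 5.82 in WT and 6.01, 6.11, 5.87, 6.10 and 6.21 in KO, a log2 difference of 0.19 (SE 0.126). Here KO array 3 was the one within the WT range.

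Gabarapl1, known as a target of FOXO factors, read 9.36, 9.39 and 9.10 in WT and 9.71, 9.95, 9.51, 9.29 and 8.77 in KO. It varied most of the family, with KO arrays 1 and 2 the highest and KO array 5 the lowest. Its log2 difference of 0.17 (SE 0.237) turned to -0.09 without KO arrays 1 and 2. Gabarap read 10.79, 10.83 and 10.95 in WT and 10.86, 10.85, 10.92, 10.75 and 10.85 in KO, with a log2 difference of -0.01 (SE 0.117), while its second, dimmer cluster gave 0.01 (SE 0.124). Gabarapl2 read 6.36, 6.62 and 6.38 in WT and 6.59, 6.44, 6.56, 6.34 and 6.35 in KO, a log2 difference of 0.00 (SE 0.131). Both of these genes overlapped between the groups. The members of this family are similar in sequence, and the sources used here do not say whether the probes separate them.

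**Figure D3:**
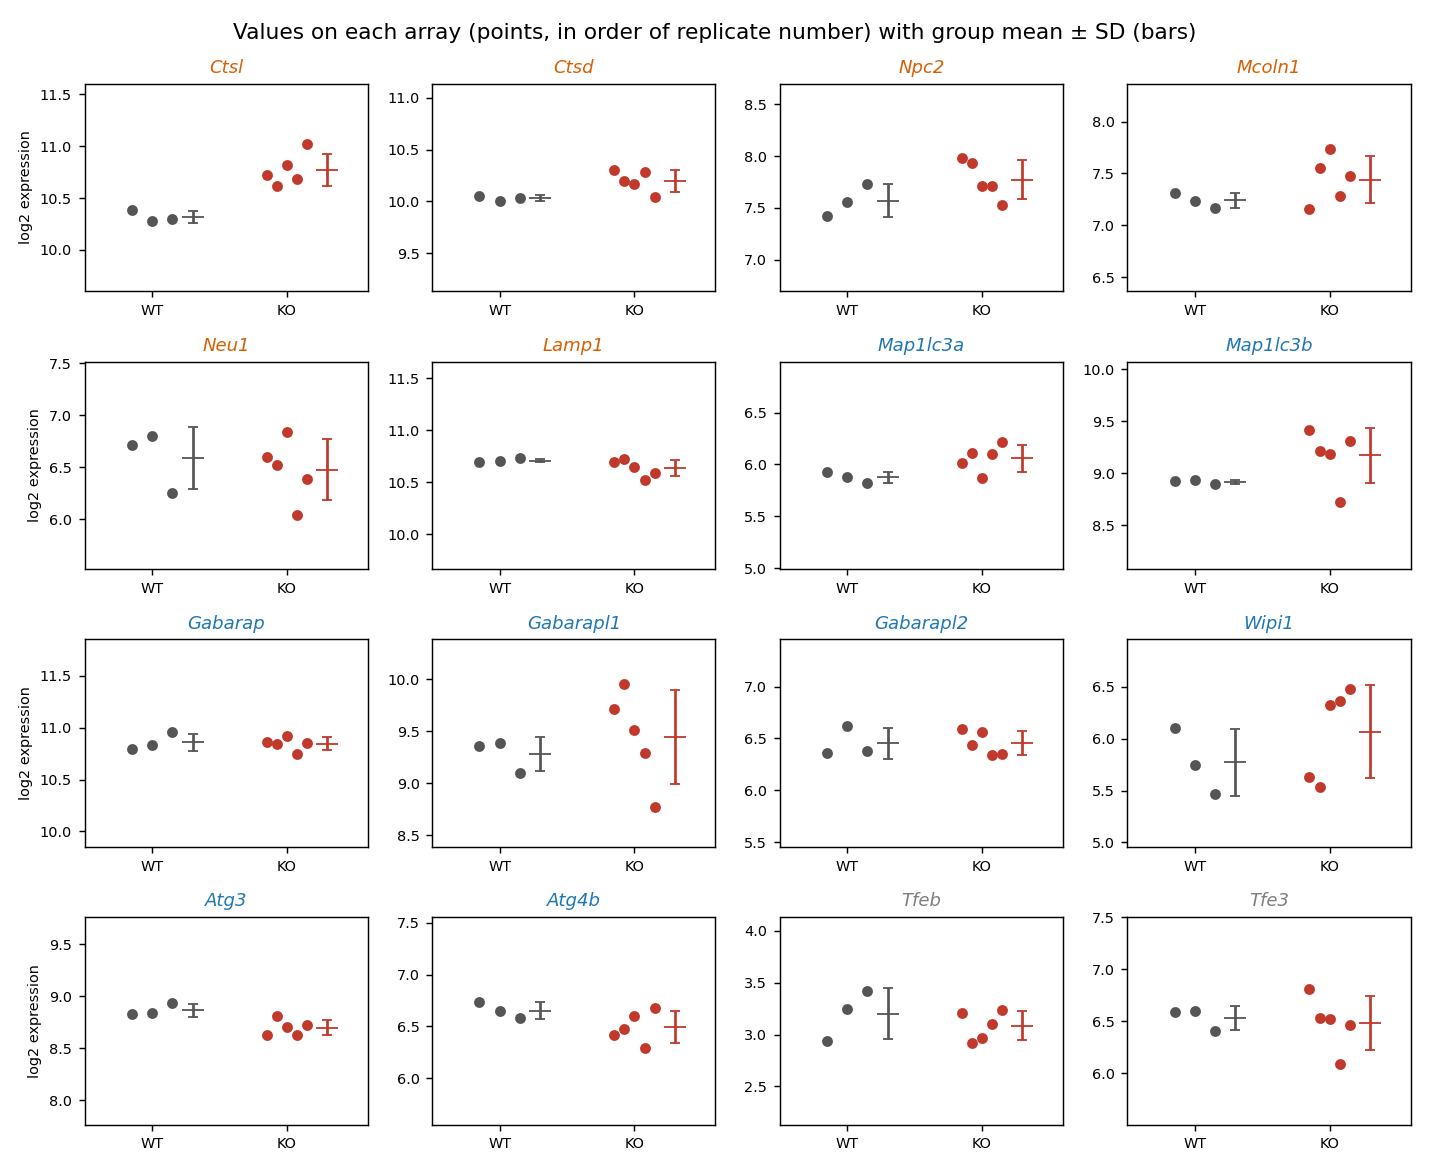
Log2 expression of 16 members on each array (points, ordered by replicate number) with the group mean and SD (bars), WT in grey (n = 3) and KO in red (n = 5); every panel spans 2 log2 units around the gene's mean. Only Ctsl and Atg3 show KO points that are all on 1 side of the WT points.

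Upstream of conjugation, the differences were spread around 0. Ulk1 and Ulk2, the kinases that start autophagy, and Atg13, their partner, had log2 differences of -0.04 (SE 0.134), -0.14 (SE 0.164) and 0.14 (SE 0.123). That of Ulk2 was -0.31 without KO arrays 1 and 2. Becn1 and Atg14, parts of the lipid kinase complex, had -0.10 (SE 0.144) and 0.14 (SE 0.283). The large error of Atg14 came with values of 6.32, 6.66, 5.45, 5.53 and 6.29 on the KO arrays and 6.16, 6.04 and 5.55 in WT. KO arrays 3 and 4 were the lowest of the 8, and the difference was -0.16 without KO arrays 1 and 2.

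Of the genes that supply and extend the membrane, Wipi1, which binds the lipid mark, did not pass the test and depended on single arrays. It read 6.10, 5.75 and 5.46 in WT and 5.64, 5.53, 6.33, 6.36 and 6.48 in KO. KO arrays 3 to 5 were above every WT array and KO arrays 1 and 2 within the WT range, so that the log2 difference of 0.30 (SE 0.252) became 0.62 without those 2 arrays, with a limma adjusted p of 0.807. Leaving out single arrays gave 0.142 to 0.461. With the replicate number as a block the difference was 0.059. That value rests on arrays 1 to 3 of each group, since numbers 4 and 5 occur only in KO. Under several of these settings Map1lc3b or Gabarapl1 had the larger difference. Atg9a, a scramblase of the donor vesicles, had a log2 difference of -0.12 (SE 0.114, exact permutation p = 0.0357). All 5 KO arrays lay below its WT mean, as they also did for Becn1, Atg3 and Atp6v1h. Its groups overlapped only through KO array 3 at 6.716 and WT array 3 at 6.71. Atg2a, which transfers lipid, and Wipi2, the close relative of Wipi1, had log2 differences of 0.09 (SE 0.163) and -0.01 (SE 0.137). Of the cargo receptors, Sqstm1 (p62) and Nbr1, which bind ubiquitin-tagged cargo, and Bnip3, which marks mitochondria, had 0.07 (SE 0.122), 0.01 (SE 0.134) and -0.07 (SE 0.149).

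Tfeb was dim, at 2.94, 3.24 and 3.42 in WT and 3.21, 2.92, 2.97, 3.10 and 3.23 in KO. These values lie near the array medians, and its log2 difference was -0.12 (SE 0.149), or -0.005 to -0.247 when single arrays were left out. Tfe3 read 6.59, 6.60 and 6.40 in WT and 6.81, 6.53, 6.52, 6.09 and 6.47 in KO, a log2 difference of -0.05 (SE 0.165). Its highest and lowest values were both in KO. Both factors are regulated mainly by their move into the nucleus, which transcript levels do not show.

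**Figure D4:**
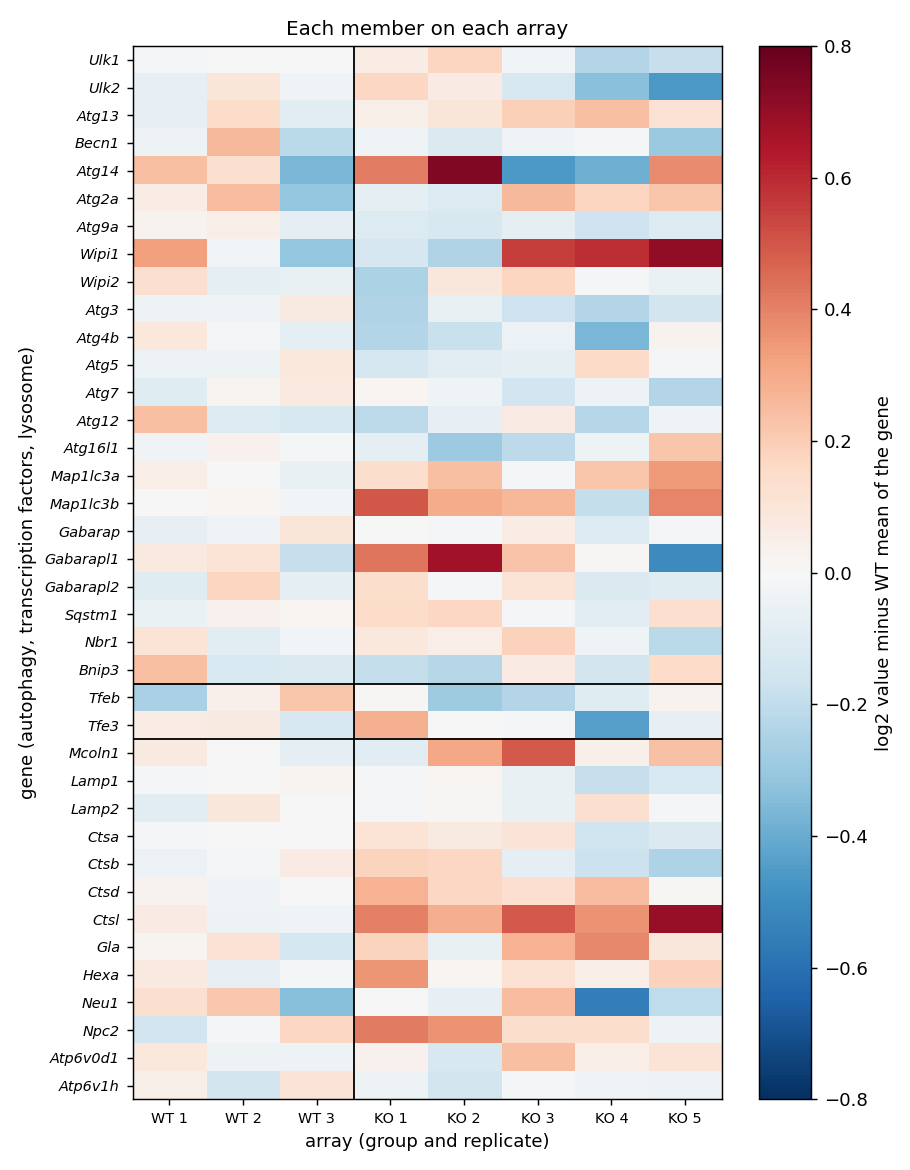
Log2 value of each of the 38 members on each of the 8 arrays, minus the gene's WT mean (colour, from -0.8 in blue to 0.8 in red); lines separate WT from KO and the classes of genes. Ctsl is red on all 5 KO arrays, while Wipi1, Atg14 and Gabarapl1 differ among the KO arrays.

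Lysosomal and autophagy genes were then set against each other within each array, as the mean difference from the genes' WT means. The autophagy machinery lay at 0.04, 0.04 and -0.08 in WT and at 0.02, 0.05, 0.03, -0.06 and 0.01 in KO. The lysosomal genes lay at 0.02, 0.01 and -0.02 in WT and at 0.14, 0.08, 0.16, 0.02 and 0.04 in KO. The autophagy values overlapped, while the lysosomal values of the KO arrays lay above those of WT, by little on KO arrays 4 and 5. Without Ctsl, KO arrays 4 and 5 lay at -0.004 and -0.013 and WT array 1 at 0.012, so the lysosomal values overlapped too. The lysosomal mean minus the autophagy mean was -0.03, -0.03 and 0.06 in WT and 0.12, 0.03, 0.12, 0.08 and 0.03 in KO. On that scale WT array 3 lay above KO arrays 2 and 5, and the groups overlapped. The medians of the log2 differences of both classes differed by 0.07, and by 0.055 to 0.125 when single arrays were left out. No test is given for these averages, because the members were chosen with earlier results of these data known.

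**Figure D5:**
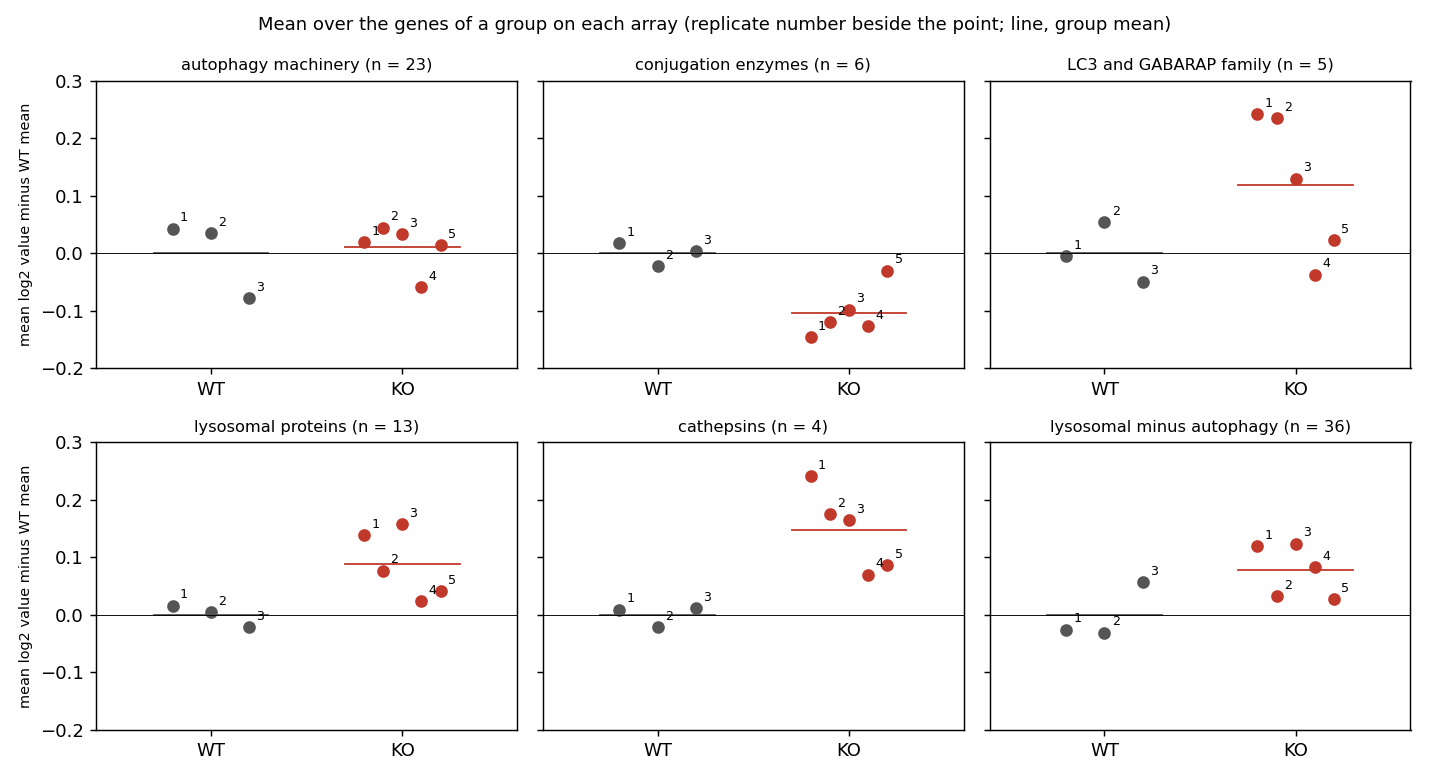
Mean over the genes of a group on each array, as the log2 value minus the gene's WT mean (points, with replicate numbers; lines, group means), for WT (grey, n = 3) and KO (red, n = 5). Cathepsins lie at 0.07 to 0.24 on the KO arrays and conjugation enzymes at -0.15 to -0.03, while the autophagy machinery as a whole overlaps between the groups; without Ctsl and Atg3, respectively, the first 2 groups overlap as well.

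The E-box that TFEB and TFE3 bind was looked up in the promoters of the members, from 250 bases before to 50 bases after the start site, in RefSeq's sequences on the GRCm38.p6 build. It was searched as the core CACGTG, which reads the same on both strands, and as that core flanked by T, TCACGTG or its complement CACGTGA. A promoter was given for 33 of the 40 genes. The flanked box was found in 9 of these 33 (27.3%), in 6 of 11 lysosomal genes (54.5%) and 3 of 20 autophagy genes (15%), against 4.29% of 27025 genes with a promoter, or 5.13% of the 16990 of them that were measured. The core alone or flanked was found in 12 of the 33 (36.4%), against 8.09% of all. Because the members were chosen from what is known of the pathway, these shares describe the list and are not a test. A match describes the letters and not the binding of a factor.

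The promoters of 5 members are shown, with the core and a flanking T or A in capitals. Ctsl and Atg3 are the members whose groups did not overlap. Ctsd, Mcoln1 and Lamp1 are lysosomal genes with several boxes, as are Ctsa and Gla, which are not shown.
Ctsl, chr13:64370471-64370770, minus strand: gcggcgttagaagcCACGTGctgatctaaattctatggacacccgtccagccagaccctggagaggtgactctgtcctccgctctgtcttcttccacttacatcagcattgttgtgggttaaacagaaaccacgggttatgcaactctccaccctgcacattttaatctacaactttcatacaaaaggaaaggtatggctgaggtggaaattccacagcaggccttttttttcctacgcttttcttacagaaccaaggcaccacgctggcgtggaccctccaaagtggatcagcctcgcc
Atg3, chr16:45158579-45158878, plus strand: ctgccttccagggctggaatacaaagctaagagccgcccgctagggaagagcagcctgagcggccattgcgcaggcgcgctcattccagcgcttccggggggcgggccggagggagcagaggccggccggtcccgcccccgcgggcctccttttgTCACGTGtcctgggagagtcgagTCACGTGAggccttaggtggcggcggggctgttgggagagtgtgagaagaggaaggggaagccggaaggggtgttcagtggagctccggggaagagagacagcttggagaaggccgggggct
Ctsd, chr7:142387778-142388077, minus strand: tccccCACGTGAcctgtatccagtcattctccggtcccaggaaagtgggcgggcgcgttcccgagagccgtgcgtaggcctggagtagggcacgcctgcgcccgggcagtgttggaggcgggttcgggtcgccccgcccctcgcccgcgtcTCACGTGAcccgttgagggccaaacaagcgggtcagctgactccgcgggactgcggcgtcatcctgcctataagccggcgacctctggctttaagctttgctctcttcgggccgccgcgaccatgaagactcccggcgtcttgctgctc
Mcoln1, chr8:3500269-3500568, plus strand: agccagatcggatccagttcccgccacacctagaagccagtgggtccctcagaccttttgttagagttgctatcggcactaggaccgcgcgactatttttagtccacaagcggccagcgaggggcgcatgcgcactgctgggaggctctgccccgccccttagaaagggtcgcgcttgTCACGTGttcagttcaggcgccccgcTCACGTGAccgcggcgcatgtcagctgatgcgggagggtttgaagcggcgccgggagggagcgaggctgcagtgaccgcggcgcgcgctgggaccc
Lamp1, chr8:13158911-13159210, plus strand: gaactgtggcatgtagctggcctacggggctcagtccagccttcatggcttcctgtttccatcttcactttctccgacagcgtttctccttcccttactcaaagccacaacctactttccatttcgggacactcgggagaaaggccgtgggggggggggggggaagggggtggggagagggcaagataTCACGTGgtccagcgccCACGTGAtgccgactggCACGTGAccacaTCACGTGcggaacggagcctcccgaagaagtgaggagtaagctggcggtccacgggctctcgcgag

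Ctsl, the member with the largest difference, had only an unflanked core in the window searched, 236 bases before the annotated start site. Atg3, the member that was lower without overlap, had 2 flanked boxes, at 94 and 71 bases before the start. Lamp1 held 4 boxes within 61 bases of its start, and its log2 difference was -0.07. The 9 measured members with the flanked box were Ctsa, Ctsd, Mcoln1, Lamp1, Atp6v0d1, Gla, Atg3, Atg7 and Atg14, of which 6 were higher and 3 lower, with a median log2 difference of 0.06 and a range of -0.17 to 0.20. The 23 other measured members with a promoter had a median of 0.00 and a range of -0.16 to 0.45, 12 higher and 11 lower. Of the 9, 0 were called, and 0 had an unadjusted limma p under 0.05.

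Other genes of the pathway were read from the same fit. In 5 further lists with 150 measured genes, 0 were called by limma, and 10 (6.67%) had an unadjusted p under 0.05, against 6.08% of all clusters. The groups did not overlap in 7 of them (4.67%, with 3 higher and 4 lower), against 4.43% of all clusters. Of 37 other autophagy genes 16 were higher and 21 lower, with a median log2 difference of -0.01, and of 34 other lysosomal hydrolases 21 were higher and 13 lower, with a median of 0.02. Of 25 other membrane and sorting proteins of the lysosome, 15 were higher and 10 lower, with a median of 0.07. Of 18 other V-ATPase subunits 8 were higher and 10 lower (median -0.02), and of 36 regulators 17 were higher and 19 lower (median -0.02). In the order of these lists, an unadjusted p under 0.05 was found for 2.70%, 2.94%, 8%, 16.7% and 8.33%. The groups did not overlap in 2.70%, 2.94%, 0%, 11.1% and 8.33%. Also among the 10 were Atp6v1f, a dim V-ATPase subunit (log2 difference 0.48, SE 0.188), and the regulator Ddit4 (0.68, SE 0.3), both with overlap.

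Of the 7, Lipa, Stx17, Mlst8 and Rptor were lower and Atp6v0e2, Atp6v1c1 and Lamtor3 higher in KO. Rptor, the mTORC1 subunit raptor, Atp6v1c1, a V-ATPase subunit, and Lamtor3, part of the complex that anchors mTORC1 to the lysosome, were named after their values were seen, with log2 differences of -0.09 (SE 0.113), 0.11 (SE 0.119) and 0.10 (SE 0.116). A pseudogene of Lamtor3 is also on the array, and whether the probes separate them is not known. Lipa, the lysosomal acid lipase that hydrolyses cholesteryl esters and triglycerides, read 10.81, 10.77 and 10.78 in WT and 10.59, 10.46, 10.38, 10.45 and 10.61 in KO. Its log2 difference was -0.29 (SE 0.12), with an exact permutation p of 0.0179 and a limma adjusted p of 0.804. Stx17, the SNARE of the closed autophagosome, read 7.10, 7.08 and 6.98 in WT and 6.70, 6.62, 6.63, 6.89 and 6.81 in KO, a log2 difference of -0.32 (SE 0.125, exact permutation p = 0.0357, limma adjusted p = 0.795). In both genes each KO array was below each WT array. Both, like Atp6v0e2 below, were named because their limma p was among the smallest of their list. Their exact permutation p-values come from the same arrays and are no separate support.

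Other genes with the smallest p in their lists were mixed in direction. Retreg1, a receptor for autophagy of the endoplasmic reticulum, had a log2 difference of 0.34 (SE 0.157), and Acp2, a lysosomal acid phosphatase, one of -0.24 (SE 0.143). Gnptab, which makes the mannose-6-phosphate tag that sends hydrolases to the lysosome, had -0.50 (SE 0.21). Mlst8, a subunit of the mTOR complexes that restrain autophagy, read 5.77, 5.86 and 5.71 in WT and 5.15, 5.17, 5.35, 5.45 and 5.63 in KO, a log2 difference of -0.43 (SE 0.145) without overlap. Flcn, folliculin, which acts on the Rag proteins that hold TFEB and TFE3 in the cytoplasm, had 0.50 (SE 0.2), with KO arrays 1 and 2 the highest at 6.46 and 6.38 and the WT arrays at 5.60, 5.92 and 5.30. Without KO arrays 1 and 2 the difference of Flcn was 0.28. None of these passed the test over all genes.

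Some of the genes with the smallest p were dim, and for these no measure of background was used here. Atp6v0e2, a V-ATPase subunit, read 3.80, 3.66 and 4.03 in WT and 4.58, 4.36, 4.04, 4.27 and 4.37 in KO, each KO array above each WT array, though KO array 3 by little. Its log2 difference was 0.49 (SE 0.153), with an exact permutation p of 0.0179 and a limma adjusted p of 0.795. Atp6v0d2, a subunit known from osteoclasts and macrophages, read 2.70, 2.43 and 3.29 in WT and 6.22, 5.60, 4.04, 4.22 and 2.71 in KO. KO arrays 1 and 2 were far above the rest and KO array 5 was within the WT range, so the groups overlapped, and the log2 difference was 1.75 (SE 0.648, limma adjusted p = 0.795), or 0.85 without KO arrays 1 and 2. Its WT values lie near the array medians. The macrophage markers averaged 6.30, 6.06 and 6.50 in WT and 6.75, 6.43, 6.85, 5.81 and 6.21 in KO, highest on KO array 3, where Atp6v0d2 read 4.04, and their part in this difference was not tested. Lamp3, a lysosomal membrane glycoprotein, differed by 0.40 on the log2 scale (SE 0.152), with a mean of 2.51, below the array medians.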

How the data were processed

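Mouse Gene 2.0 ST arrays were run with 200 ng of liver RNA from each of 3 WT and 5 Abhd15 KO mice, and groups were taken from the sample titles. The authors deposited log2 values for 41345 transcript clusters. RMA and oligo are named per the submitters' processing notes, and Expression Console in the design text. The sources used here give neither their versions and settings nor a slide or scan date, so no batch could be tested. RMA compresses the differences of dim clusters. The log2 scale was read from the range of values, 0.409 to 13.27.

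Genes were named from the platform's annotation: 23521 clusters have 1 symbol, 1814 several and 16010 none. KO minus WT was fitted with limma 3.58.1 in R 4.3.3 (lmFit, eBayes, no covariates, all 8 arrays), with two-sided p-values adjusted by the Benjamini-Hochberg method over these 23521 clusters. The fit was checked on simulated data for bias, false calls and the recovery of changes far larger than those of the members. The share recovered at the smallest simulated size is not reported here. Smaller differences, such as those of the members, were not simulated, so the check does not show whether they would be called. An exact permutation test over the 56 splits of the arrays was run for single genes. The number of arrays limits the precision.

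Members, lists and tests were chosen with earlier results of these data known. Members without overlap or with an unadjusted p under 0.05, the 2 largest rises and falls of each class, Tfeb, Tfe3 and the LC3 family are described with all arrays (Ctsd, Mcoln1, Atg14 and the promoters shown were chosen after their values were seen), as are the 2 smallest p of each further list, some by their difference alone. Other genes of these lists with an unadjusted p under 0.05 are named as well. Marker lists for macrophages and hepatocytes are reported, and 6 further marker lists had 0 called genes, like the array as a whole, while no erythroid marker was measured. Among all marker lists, Lyve1 (sinusoidal endothelium, log2 difference 0.65, SE 0.164) and Tat (hepatocyte, 0.21, SE 0.12) were higher without overlap. Lrat (stellate cell, -0.34, SE 0.136) was lower without overlap, which 4.43% of all clusters were in either direction. Same-numbered WT and KO arrays had correlations of their deviations of -0.048, 0.016 and 0.021, so the numbers were not taken to pair the samples. Alternatives were other normalizations, filters, fits and left-out arrays.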

Additional observations from a re-analysis of the deposited data

Results flagged for a closer look

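One of 65 tested sets of 5 KO values had an array far from the others. For Atp6v1h, a V-ATPase subunit, KO array 2 read 6.275, while the other KO arrays read 6.37 to 6.41. Its gap took up 0.756 of the range of the KO values, above the critical value of 0.71. The WT arrays read 6.47, 6.28 and 6.52, so the low value lay at the level of WT array 2. Chance gives such a gap in about 1 of 20 sets.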

How the results depend on the processing

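Under 16 alternative settings 0 of the 38 members were called, and 20 of the 38 kept the sign of their difference, where Tfeb was fitted under 15, since its mean is below 5. Ctsl stayed between 0.388 and 0.517 (adjusted p between 0.314 and 0.972). Over all clusters fitted, the count of calls was 1 with only clusters of a mean of at least 5, 3 with all clusters, 3 with trend and robust empirical Bayes, and 1 with the replicate number as a block, against 0. At an unadjusted p under 0.05 the bright clusters gave 636 and all clusters 2316, against 1429, where the number of clusters fitted differs. In the 18 members whose sign turned, no cause beyond the change of setting was tested. With a further quantile normalization the log2 differences were 0.004 (Ctsb), 0.005 (Gabarap), 0.008 (Tfe3) and 0.018 (Wipi2). Replicate numbers 4 and 5 occur only in KO. The differences with the replicate block therefore rest on arrays 1 to 3 of each group, KO arrays 1 and 2 included. With this block the log2 differences were -0.022 (Lamp2), 0.004 (Wipi2), 0.017 (Gabarap), 0.035 (Ulk2), 0.062 (Neu1), 0.071 (Ulk1), 0.091 (Ctsb) and 0.091 (Tfe3), and the block changed no call of a member. Without KO arrays 1 and 2 they were -0.022 (Nbr1), -0.035 (Gabarapl2), -0.056 (Ctsa), -0.093 (Gabarapl1), -0.157 (Atg14), 0.021 (Bnip3), 0.022 (Atg5) and 0.037 (Wipi2). Leaving out single arrays gave ranges of Ulk1 -0.094 to 0.007, Becn1 -0.208 to 0.030, Atg14 -0.046 to 0.286, Atg2a -0.061 to 0.219, Wipi2 -0.055 to 0.053, Atg5 -0.076 to 0.013, Atg12 -0.157 to 0.025, Gabarap -0.046 to 0.034, Gabarapl2 -0.044 to 0.089, Nbr1 -0.029 to 0.071, Bnip3 -0.133 to 0.048, Tfe3 -0.129 to 0.053, Lamp2 -0.036 to 0.054, Ctsa -0.024 to 0.042 and Ctsb -0.081 to 0.025. In 16 further members 1 left-out array moved the difference by over 1.5 times without turning it: Ulk2 -0.213 to -0.057, Atg13 0.095 to 0.213, Wipi1 0.142 to 0.461, Atg7 -0.140 to -0.052, Atg16l1 -0.152 to -0.025, Gabarapl1 0.038 to 0.334, Sqstm1 0.045 to 0.109, Tfeb -0.247 to -0.005, Lamp1 -0.096 to -0.046, Mcoln1 0.126 to 0.269, Neu1 -0.285 to -0.004, Gla 0.105 to 0.233, Hexa 0.094 to 0.184, Npc2 0.127 to 0.285, Atp6v0d1 0.016 to 0.108 and Atp6v1h -0.130 to -0.006. Chosen after the data were seen, averages without Ctsl gave a mean log2 difference of 0.058 against 0.088 (lysosomal) and 0.047 against 0.148 (cathepsins), and without Atg3 -0.091 against -0.104 (conjugation). Array number and, for dim genes such as Tfeb, signal near the array medians limit these values.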
